A study of Mus musculus with 16 samples.

Results

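The comparison described here sets primary lung fibroblasts that lack meflin against wild type fibroblasts after both had been kept with TGF-β1, and asks how the 2 treated end states differ across genes. Its members are the 4 arrays labelled as Meflin knockout with TGFb and the 4 labelled as wild type C57BL/6J with TGFb, 8 of the 16 arrays of the study. All cells were lung fibroblasts freed by enzymatic digestion from mice labelled female and 8 weeks old, and the treated ones had received recombinant TGF-β1 at 5 ng/ml for 48 h. The other 8 arrays hold the same genotypes kept for 48 h with vehicle (0 ng/ml), 4 arrays each, and are given beside the treated ones. The deposited design counts 4 independent experiments per group, and nothing in the labels ties an array to an animal or states the strain of the knockout mice or the deleted part of the gene. The p-values therefore measure the spread between these arrays, whatever its source.

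Meflin, the product of Islr, is a membrane-anchored protein with leucine-rich repeats and an immunoglobulin-like domain that marks mesenchymal stromal cells and a part of tissue fibroblasts. TGF-β1 binds a pair of receptor kinases that phosphorylate SMAD2 and SMAD3, and over days it turns fibroblasts into myofibroblasts, which make contractile stress fibres and lay down collagen and other matrix. In the lung the same cytokine drives fibrosis, and the fibroblasts it acts on include alveolar lipid-storing cells and progenitor-like cells of the vessel sheath.

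Signals are log2 of the background-subtracted spot intensity after each array was shifted to a common 75th percentile, so that a difference of 1 is 2-fold. Differences are knockout minus wild type ± standard error (SE), n = 4 arrays per group, from a limma model of all 16 arrays, and a gene was called at a Benjamini-Hochberg adjusted p under 0.05 over 15394 genes. On the TGF-β1 arrays the 75th percentile of intensity was 382.1 to 445.9 in knockout and 428.6 to 452.1 in wild type cells, and 31322 to 32465 and 32071 to 33570 probes lay well above background. The least alike arrays had r = 0.99587 among knockout and 0.99715 among wild type ones, and the median SD of a gene was 0.0802 and 0.0714. Over the 8 treated arrays 84.7% of the variance fell on the leading principal component, which separated the genotypes, and knockout replicate 1 lay farthest out on the next (4.04%). All 15 general fibroblast markers were well above background on all 8 treated arrays. Their summed intensity was 744156 to 806901 in knockout and 821010 to 860502 in wild type cells.

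Islr itself was examined first. Under TGF-β1 its signal was 1.65, 1.77, 1.80 and 1.82 on the knockout arrays and 8.23, 8.35, 8.42 and 8.36 on the wild type arrays. None of the knockout arrays and all of the wild type arrays were well above background, so the groups stood apart as their labels say. Islr was at least 19.7-fold lower in the knockout (adjusted p = 6.33e-18). Such a bound compares the brighter group with the dimmer one, where a dim array counts at its own signal or, if that is higher, at the dimmest signal the program still marked as detected. The array carries 1 probe for Islr, and whether it lies within the deleted part is not given in the sources used here.

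With TGF-β1 present the genotypes differed at most of the measured genes. Of 15394 genes 10800 were called (70.2%), 6099 higher in the knockout (39.6%) and 4701 lower (30.5%). At least 2-fold differences were fewer, at 1590 genes (10.3%), and they were mostly decreases: 510 genes were at least 2-fold higher (3.31%) and 1080 at least 2-fold lower (7.02%). Some of these folds are fitted against a group at background. Among genes well above background on all 8 treated arrays 412 were at least 2-fold higher and 729 at least 2-fold lower, 62 and 141 at 4-fold, and 9 and 36 at 8-fold. The median difference over all genes was 0.059 and the median absolute difference 0.294. With normexp background correction and an offset of 50 added to every signal, the 2-fold counts were 283 higher and 473 lower. The split of calls moved with the scaling: 56.5% of called genes were higher in the knockout here, against 46.8% with quantile normalization, 47.1% in the authors' deposited value table and 68.7% after a shift to a common median, which moved the median of all genes by 0.124. Called genes numbered 8401 among the arrays of slide 1 and 9795 among those of slide 2, each slide holding 2 arrays of every group.

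Without TGF-β1 the same genotypes were far closer. With vehicle 2037 genes were called (13.2%), 1089 higher (7.07%) and 948 lower (6.16%), and 48 were at least 2-fold apart (0.312%), 10 higher (0.065%) and 38 lower (0.247%) in the knockout, and the median absolute difference was 0.084. Within slide 1 alone 196 genes were called with vehicle and within slide 2 alone 1049. The 4 knockout arrays lay entirely above or below the 4 wild type arrays for 64.7% of genes under TGF-β1 and for 18.8% with vehicle. The test of the difference itself, the interaction of genotype and treatment, called 8967 genes (58.2%; 31.7% positive and 26.5% negative), 1533 of them with an interaction of at least 2-fold (9.96%), 498 positive (3.24%) and 1035 negative (6.72%). Within slide 1 alone the interaction called 5615. Among the 510 genes at least 2-fold higher under TGF-β1, 346 (67.8%) had a vehicle difference under 0.25 in size, and 82 (16.1%) were also called higher with vehicle. Of the 1080 genes at least 2-fold lower, 740 (68.5%) had a vehicle difference under 0.25 and 158 (14.6%) were also called lower with vehicle. The interaction was called for 343 of those 346 and 735 of those 740. Those genes were chosen for a large treated and a small vehicle difference, so these interaction calls follow largely from the choice.

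**Figure D1:**
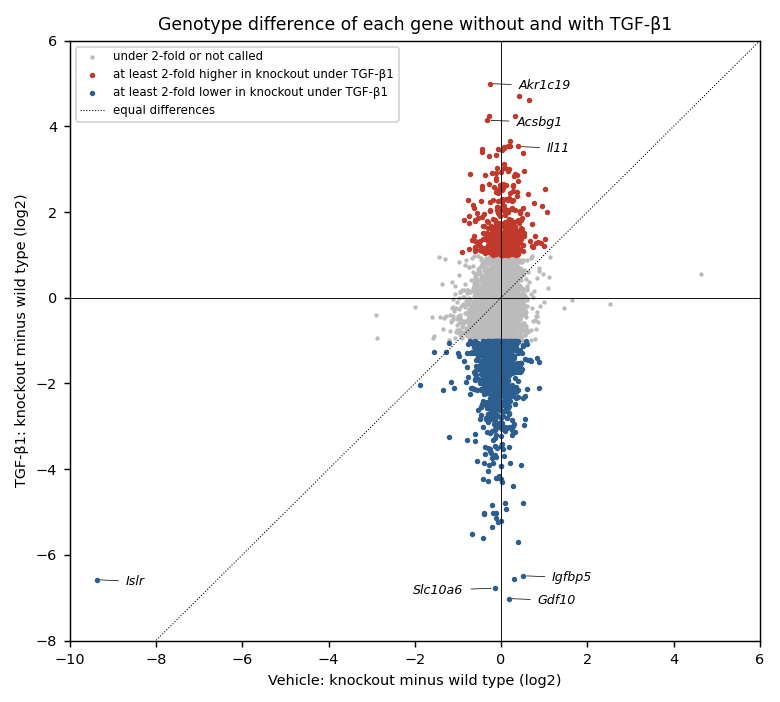
Each point is a gene, placed by its difference between knockout and wild type with vehicle (horizontal axis, log2) and under TGF-β1 (vertical axis, log2); red and blue points are the 510 and 1080 genes called at least 2-fold higher or lower under TGF-β1, at their measured values. The cloud stands upright along the vertical axis, and Islr, low in the knockout in both comparisons, lies far to the left.

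Several of the genes lowered most in the treated knockout encode secreted proteins. Gdf10, a ligand of the BMP family, had signals of 4.84, 5.08, 4.35 and 4.66 on the knockout arrays against 11.84, 11.68, 11.71 and 11.78 on the wild type arrays. That is a difference of -7.02 ± 0.11, 130-fold (adjusted p = 7.75e-16), in a gene that stood at 13.48 to 13.60 in knockout and 13.21 to 13.47 in wild type cells with vehicle. Igfbp5, which binds insulin-like growth factors, was at 4.86, 4.68, 4.79 and 4.74 in the knockout and 11.22, 11.23, 11.31 and 11.27 in the wild type (-6.49 ± 0.05, 89.8-fold, adjusted p = 5.77e-19). With vehicle it was higher in the knockout by 0.51 ± 0.05. Adamts15, a secreted protease that cleaves proteoglycans, was at 5.53, 6.22, 5.68 and 6.28 against 12.43, 12.48, 12.49 and 12.55 (-6.56 ± 0.13). In each of these 3 genes both vehicle groups were brighter than the treated wild type, and the treated knockout was by far the dimmest of the 4 groups.

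Haptoglobin (Hp, -5.69 ± 0.08), the angiopoietin-like protein Angptl7 (-5.61 ± 0.08), the protease inhibitor Serpina3n (-5.23 ± 0.10), Gdpd2 (-5.04), the neutrophil chemokine Cxcl5 (-5.03 ± 0.11), the cytochrome Cyp2s1 (-4.84), the stem cell antigen Ly6a (-4.23 ± 0.10) and the lymphatic growth factor Vegfd (-4.16 ± 0.08) completed the lowest measured genes, with the connexin Gja5. Hp was brighter in treated than in vehicle wild type cells, at 14.22, 14.28, 14.32 and 14.28, while the treated knockout arrays gave 8.45, 8.86, 8.41 and 8.62. Gja5 differed by -4.79 ± 0.04 on its brightest probe and by -0.22 on another, so its value depends on the probe. Among genes not well above background on any treated knockout array, Serpina3i was at least 28.5-fold lower on its brightest probe, Slc10a6, which imports steroid sulfates, at least 24.1-fold, Krtap11-1 at least 14.3-fold, the matrix protein Abi3bp at least 13.4-fold, the adhesion molecule Chl1 at least 11.3-fold, Olfml1 at least 11.1-fold and Calca, the gene of calcitonin and CGRP, at least 10.4-fold. Other probes gave smaller log2 differences, -3.34 for Serpina3i, -3.14 and -3.66 for Abi3bp, and -2.70 and -0.21 for Chl1, so these bounds hold for the brightest probe only. Slc10a6 read 1.74, 1.84, 1.90 and 1.90 in the knockout and 8.57, 8.55, 8.72 and 8.66 in the wild type, from 9.81 to 9.87 and 9.86 to 10.13 with vehicle.

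On the other side stood growth factors, cytokines and matrix genes. Acsbg1, an acyl-CoA synthetase that activates long-chain fatty acids, gave 9.45, 9.35, 9.65 and 9.35 in the knockout and 5.16, 5.22, 5.47 and 5.37 in the wild type. Among the probes that stand for genes it was the largest measured increase, 4.14 ± 0.22 or 17.7-fold (adjusted p = 3.25e-10), and with vehicle the difference was -0.32 ± 0.22 with 3 of 4 knockout arrays above background. Hbegf, a ligand of the EGF receptor, was at 12.37, 12.31, 12.61 and 12.37 against 9.10, 9.01, 9.10 and 9.14 (3.33 ± 0.06, adjusted p = 2.67e-15). Both vehicle groups lay at 9.00 to 9.27, so in wild type cells Hbegf sat at its vehicle level and the treated knockout alone was raised. The cytokine Il11, a product of fibrotic fibroblasts, gave 12.44, 12.22, 12.78 and 12.39 against 8.88, 9.04, 8.85 and 8.93 (3.53 ± 0.13), while the vehicle arrays lay at 8.91 to 9.70, so here too the treated wild type was no higher than vehicle.

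The remaining largest measured increases were C1qtnf3 (3.66 ± 0.09; 4.12 and 4.19 on other probes), the serotonin receptor Htr2b (3.55 ± 0.10), the cartilage proteoglycan aggrecan Acan (3.52 ± 0.13), the keratin Krt20 (3.45 ± 0.31), the relaxin-family receptor Rxfp3 (3.02), the serine protease Prss46 (2.97), the hyaluronan synthase Has2 (2.96 ± 0.05), Esm1 (2.91) and the pericyte proteoglycan Cspg4 (2.91 ± 0.10). Has2 showed a graded pattern, with vehicle arrays at 8.68 to 9.00, treated wild type at 10.62, 10.57, 10.41 and 10.58 and treated knockout at 13.56, 13.51, 13.46 and 13.48. Acan was not well above background on any vehicle array, and its treated values were 8.02, 7.76, 8.02 and 7.84 in the knockout and 4.09, 4.81, 4.47 and 4.21 in the wild type. Genes well above background on every treated knockout array but on no treated wild type array included the chemokine Ccl17, at least 13.7-fold higher, the reductase Akr1c19 (at least 8.97-fold), the polysialyltransferase St8sia2 (at least 8.01-fold), the small heat shock protein Hspb3 (at least 7.18-fold), the collagen Col10a1 (at least 7.14-fold), Lce1f (at least 6.74-fold), the G protein regulator Rgs4 (at least 6.08-fold) and Lrrc15, a surface marker of activated fibroblasts (at least 5.24-fold). Ccl17 gave 7.68, 7.39, 7.81 and 7.75 in the knockout against 3.76, 2.96, 3.67 and 3.25. In all, 54 genes were well above background on all 4 knockout and no wild type array, 34 of them with a bound of at least 2-fold, and 175 showed the reverse, 82 with such a bound.

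**Figure D2:**
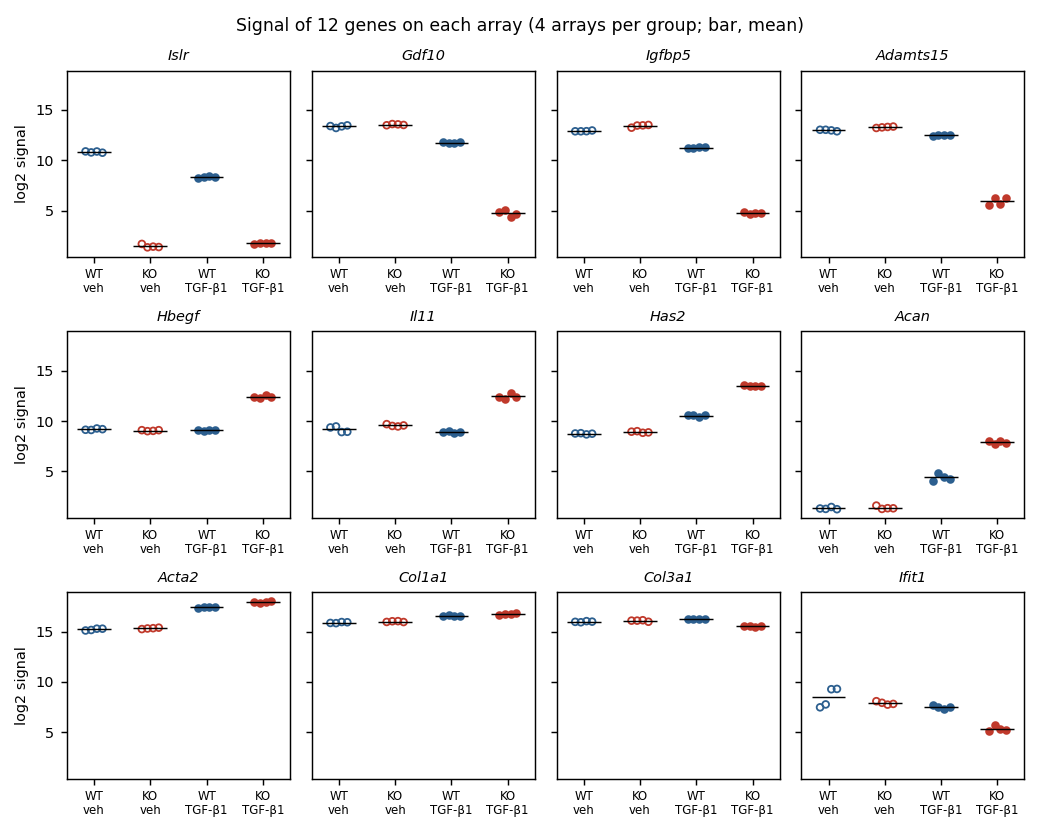
Log2 signal (vertical axis, same scale in every panel) of 12 genes on each of the 16 arrays, with open circles for vehicle and filled circles for TGF-β1, blue for wild type (WT) and red for knockout (KO), and a bar at the mean of 4 arrays. Gdf10, Igfbp5 and Adamts15 are bright in 3 groups and dim in the treated knockout, Hbegf and Il11 are raised in that group alone, and Col1a1 is nearly level between genotypes.

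Gene lists were then read by how many tested members were called in each direction, against the 39.6% higher and 30.5% lower over all genes. The lists were chosen with earlier results of these data known, so their counts describe and do not test. Over all lists together, 337 of 704 tested genes were higher and 275 lower (86.9% called).

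The contractile apparatus was higher in the treated knockout nearly throughout. Of 34 contractile and actin cytoskeleton genes 33 were higher and 1, Synpo2, was lower, with a median of 0.79 under TGF-β1 and 0.09 with vehicle. Synpo2 was at least 1.51-fold lower on its brightest probe and at -0.31 on another. With the mean of a gene's probes, or with normexp background correction, 0 of the 34 were called lower. Acta1, the skeletal muscle actin, gave 14.45, 14.34, 14.44 and 14.46 in the knockout and 12.85, 12.80, 12.78 and 12.87 in the wild type (1.60 ± 0.04, adjusted p = 5.57e-14), against 9.95 to 10.17 over the vehicle arrays. The smooth muscle genes Cnn1, or calponin (1.51 ± 0.05), Myh11, the smooth muscle myosin (1.71 ± 0.04), and Lmod1, which nucleates actin (1.76 ± 0.10), behaved alike. Myocd, the coactivator of serum response factor in smooth muscle, was at 7.14, 7.13, 7.27 and 7.12 against 4.36, 4.55, 4.81 and 4.79 (2.54 ± 0.39). Acta2, the usual myofibroblast marker, differed less on its brightest probe: 17.93, 17.90, 17.94 and 18.07 against 17.36, 17.41, 17.44 and 17.44, a difference of 0.55 ± 0.05 (adjusted p = 1.23e-07). Dimmer Acta2 probes gave 1.01 and 1.71, and quantile normalization 0.28 for the brightest.

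The CArG box, the binding motif of serum response factor, was in 8 of 35 promoter windows of this list (22.9%, against 1.41% of all windows). Promoters that hold it are shown for the sarcomeric actins Acta1 and Actc1 (cardiac actin, 1.36 ± 0.04), each with its CArG box in capitals. The sequences are the 250 bases before the RefSeq transcription start in build GRCm38.p6, read 5′ to 3′ toward the gene, at chr8:123894776-123895025, minus strand, and chr2:114052876-114053125, minus strand.
Acta1: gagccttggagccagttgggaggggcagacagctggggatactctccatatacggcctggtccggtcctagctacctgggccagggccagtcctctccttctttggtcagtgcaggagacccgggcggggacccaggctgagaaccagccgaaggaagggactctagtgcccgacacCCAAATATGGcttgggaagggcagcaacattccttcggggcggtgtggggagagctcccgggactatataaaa
Actc1: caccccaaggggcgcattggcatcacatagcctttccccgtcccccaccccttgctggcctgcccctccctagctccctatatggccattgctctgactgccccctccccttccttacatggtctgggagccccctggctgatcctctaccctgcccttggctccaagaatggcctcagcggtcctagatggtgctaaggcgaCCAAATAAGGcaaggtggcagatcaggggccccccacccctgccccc

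Markers of fibrosis-associated fibroblasts followed the same direction. Of 20 such genes 17 were higher and 3 (Sfrp1, Fap and Spp1) lower, with a median of 1.01, and 10 were at least 2-fold higher. Cthrc1, a secreted protein of collagen-producing fibroblasts in injured lung, was at 13.94, 13.79, 13.95 and 13.92 against 12.41, 12.28, 12.29 and 12.24 (1.59 ± 0.08). Postn, the matricellular protein periostin (1.67 ± 0.06), the oxidase Nox4 (1.54 ± 0.05) and Inhba, which encodes the activin A subunit (2.56 ± 0.06), were all higher. None of their treated groups overlapped, as held for 64.7% of all genes. Elastin stood apart: Eln gave 11.38, 11.45, 11.21 and 11.43 in the treated knockout, 9.10, 9.14, 9.03 and 9.03 in the treated wild type, and 10.60 to 11.13 over the vehicle arrays. Here the treated wild type was below vehicle and the knockout was not, a difference of 2.29 ± 0.08. Targets and components of YAP and TEAD, the mechanosensitive transcription pathway, were higher in 18 of 20 cases with a median of 0.52, and in 11 of 20 under quantile normalization. Their largest difference was in Ankrd1 (14.93, 14.78, 14.98 and 14.84 against 12.32, 12.22, 12.27 and 12.27, or 2.61 ± 0.06), which with vehicle differed by -0.44 ± 0.06.

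The main fibrillar collagens did not share this increase. Col1a1, the α1 chain of collagen I, gave 16.68, 16.72, 16.74 and 16.83 in the knockout and 16.53, 16.62, 16.57 and 16.60 in the wild type, a difference of 0.16 ± 0.04 (adjusted p = 0.00235) that turned to -0.09 under quantile normalization. Col1a2 differed by 0.05 ± 0.05 (adjusted p = 0.376; -0.15 under quantile normalization) and the fibronectin gene Fn1 by 0.03 ± 0.05 (adjusted p = 0.594; -0.22 under quantile normalization). Col3a1, which makes collagen III, was lower on every knockout array, at 15.55, 15.59, 15.45 and 15.60 against 16.27, 16.31, 16.29 and 16.31 (-0.75 ± 0.04, adjusted p = 3.89e-10). Of 11 fibrillar collagen genes 5 were higher and 4 lower, with a median of 0.05 (-0.09 under quantile normalization). The minor chains Col11a1 (1.98 ± 0.05) and Col5a3 (1.72 ± 0.09; 1.13 on another probe) were at least 2-fold higher, and Col2a1 was lower by a difference of -1.10 ± 0.08. Among 15 other collagens 7 were higher and 8 lower. Col7a1, of anchoring fibrils (2.01 ± 0.06), and Col10a1, of hypertrophic cartilage, were the most raised, and the collagen VI chains split, with Col6a1 and Col6a2 at -1.19 ± 0.04 and -1.08 ± 0.05 and Col6a3 at 1.01 ± 0.06.

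Enzymes that modify and crosslink collagen were mostly higher. Of 23 such genes 16 were higher and 5 lower (median 0.46), among them the lysyl oxidase Loxl2 (1.12 ± 0.07), the prolyl hydroxylase subunit P4ha2 (1.00 ± 0.05) and the procollagen proteinase Tll1 (1.84 ± 0.14; 0.91 on another probe). Matrix proteoglycans went both ways, as did genes in general (39.6% higher and 30.5% lower). Of 25 proteoglycan and hyaluronan genes 9 were higher and 10 lower, with the small leucine-rich proteoglycans on the low side. Prelp was at 11.17, 11.51, 11.21 and 11.28 against 14.30, 14.37, 14.38 and 14.31 (-3.05 ± 0.06, adjusted p = 1.12e-14). Lum, Fmod, Ogn and Dcn, which bind collagen fibrils, were lower too, at -1.55 ± 0.06, -1.11 ± 0.06, -1.08 ± 0.05 and -0.82 ± 0.04, whereas the large hyaluronan-binding Vcan was higher at 1.34 ± 0.05. Of 27 glycoproteins and elastic fibre genes 12 were higher and 9 lower, led on the low side by the basement membrane linker Nid2 (-2.30 ± 0.06) and the fibulin Efemp1 (-2.22 ± 0.07). Matrix proteases and their inhibitors leaned lower, 15 of 28 against 9 higher. Mmp3, or stromelysin, gave 10.91 to 11.05 over the knockout arrays against 14.16 to 14.29 (-3.22 ± 0.04), and the collagenase Mmp8 was at -3.01 ± 0.07.

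Members of the TGF-β pathway were traced from ligand to target. All 3 TGF-β ligand genes were higher in the treated knockout: Tgfb1 at 10.06, 10.07, 10.30 and 10.07 against 9.30, 9.29, 9.42 and 9.31 (0.79 ± 0.08), Tgfb2 by 1.31 ± 0.06 and Tgfb3 by 1.16 ± 0.05. With vehicle Tgfb1 had been lower in the knockout, at -0.31 ± 0.08. Lower ligands were Bmp4 at 9.84, 9.98, 9.96 and 9.88 against 11.48, 11.57, 11.66 and 11.57 (-1.65 ± 0.07), Bmp2 at -0.89 ± 0.07 and Bmp6 at -0.71 ± 0.08, beside Gdf10, while Bmp5 stood at 0.02. Over all 15 ligands 6 were higher and 6 lower. Of 19 receptors and latency proteins 10 were higher and 7 lower. The signalling receptor Tgfbr1 was higher (0.55 ± 0.07), and the co-receptor Tgfbr3, or betaglycan, was at 9.46, 9.54, 9.33 and 9.42 against 11.57, 11.47, 11.54 and 11.60 (-2.11 ± 0.05). Latent TGF-β binding proteins split, with Ltbp2 at 1.08 ± 0.04 and Ltbp3 at -0.32 ± 0.06.

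Targets and feedback inhibitors of SMAD signalling were higher in 13 of 24 cases and lower in 7 (median 0.19). Ccn2, or CTGF, was at 17.31 to 17.45 over the knockout arrays against 15.95 to 16.05 (1.36 ± 0.08). The feedback inhibitors Pmepa1 (1.28 ± 0.03), Skil (1.01 ± 0.05) and Smad7 (0.67 ± 0.05) were higher as well. The lower members were the BMP-responsive Id1 (-0.25 ± 0.07), Id2 (-0.61 ± 0.04), Id3 (-0.97 ± 0.04) and Id4 (-0.29 ± 0.05), the BMP-pathway genes Smad5 (-0.21 ± 0.04) and Smad9 (-1.19 ± 0.09), and Smad3 (-0.34 ± 0.04). Of 13 secreted antagonists 7 were higher, among them the activin binders Fst (1.37 ± 0.04) and Fstl3 (1.61 ± 0.04), and 4 were lower, including the chordin-like Chrdl2 (-2.34 ± 0.14) and Chrdl1 (-1.41 ± 0.11, with 2 of 4 knockout arrays above background).

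Other secreted signals changed in both directions. Of 36 growth factors, binding proteins and receptors 16 were higher and 13 lower, where 39.6% and 30.5% of all genes were. Nrg1, a ligand of ERBB receptors, was at 11.63, 11.57, 11.30 and 11.62 against 9.09, 8.95, 9.03 and 8.93 (2.53 ± 0.06; 2.64 and 3.29 on other probes), with both vehicle groups between, at 10.31 to 10.45. Treated wild type cells thus lay below vehicle and treated knockout cells above it. Pdgfa was higher (1.46 ± 0.04), and the receptor Pdgfra (-1.66 ± 0.05), the epithelial growth factors Fgf10 (-1.64 ± 0.06; -0.81 on another probe) and Hgf (-1.57 ± 0.08; -2.40 on another probe), and the insulin-like growth factor binder Igfbp4 (-2.72 ± 0.06) were lower. In the Wnt list 9 of 25 were higher and 1 lower with vehicle, where 7.07% and 6.16% of all genes were. Under TGF-β1 11 of the 25 were higher and 13 lower. The ligands Wnt10b (2.33 ± 0.21), Wnt9a (1.61 ± 0.06), Wnt11 (1.48 ± 0.06) and Wnt5a (1.39 ± 0.04) were higher, while the antagonists Sfrp1 (-2.03 ± 0.05) and Sfrp2 (-4.21 ± 0.17, with 2 of 4 knockout arrays above background) and the amplifier Rspo1 (-1.81 ± 0.06) were lower. Of 18 integrins 7 were higher and 8 lower (5 lower after a shift to a common median), led by the fibronectin receptor chain Itga5 (12.34, 12.19, 12.44 and 12.18 against 10.07, 10.17, 10.21 and 10.23, or 2.12 ± 0.09).

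Of 31 chemokines and cytokines 10 were lower and 1 higher with vehicle (median -0.12), where 6.16% and 7.07% of all genes were. Under TGF-β1 the list was lower more often than higher, 17 of 31 against 11 (median -0.37). Cxcl1, a neutrophil attractant, was at 5.16, 4.51, 5.05 and 5.14 in the knockout and 8.97, 8.91, 8.87 and 8.82 in the wild type (-3.93 ± 0.12). The alarmin Il33 (-2.62 ± 0.08; -1.53 on another probe), Cxcl10 (-2.14 ± 0.17) and the monocyte attractants Ccl7 (-2.04 ± 0.05) and Ccl2 (-1.84 ± 0.04) were lower too. Among the higher members, beside Il11, the IL-6 family cytokine Lif was at 8.63, 8.42, 8.56 and 8.50 against 5.67, 5.82, 5.61 and 5.80 (2.80 ± 0.10), Il6 differed by 0.41 ± 0.06, and the prostaglandin-forming enzyme Ptgs2, or COX-2, by 2.62 ± 0.06. The osteoprotegerin gene Tnfrsf11b was also higher (2.87 ± 0.10). Il11 carries an AP-1 motif in its promoter (TGANTCA), the site of FOS and JUN factors. It is shown in capitals in the 250 bases before the RefSeq start, build GRCm38.p6, chr7:4778142-4778391, minus strand, because Il11 is among the largest measured increases.
Il11: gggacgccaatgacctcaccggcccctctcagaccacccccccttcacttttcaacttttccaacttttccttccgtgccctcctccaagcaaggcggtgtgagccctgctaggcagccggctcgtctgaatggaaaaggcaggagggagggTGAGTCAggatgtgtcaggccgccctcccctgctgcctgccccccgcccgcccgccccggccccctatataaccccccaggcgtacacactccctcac

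Interferon-stimulated genes were lower as a group. Of 28 tested, 24 were lower and 0 higher, with a median of -1.11, and 16 were at least 2-fold lower. Ifit1, an antiviral RNA binder, gave 5.10, 5.72, 5.33 and 5.26 in the knockout and 7.67, 7.53, 7.34 and 7.52 in the wild type (-2.16 ± 0.33, adjusted p = 3.58e-05), and Ifit3 gave 6.73, 7.38, 6.75 and 6.67 against 9.03, 8.92, 9.09 and 9.05 (-2.14 ± 0.25). Oas2, an RNA sensor (-3.32 ± 0.25), had 1 of 4 knockout arrays above background, and the signal transducer Stat2 (-1.11 ± 0.11) was lower. With vehicle the list median was -0.32, and it differed by slide: it was 0.06 within slide 1 and -0.75 within slide 2, where both wild type vehicle arrays were bright (Ifit1 at 9.28 and 9.31, against 7.48 and 7.77 on slide 1). Under TGF-β1 the median was -1.03 within slide 1 and -1.20 within slide 2.

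The interferon-stimulated response element (ISRE, letters GAAANNGAAA) lies in the promoters of Ifit1 and Ifit3. Both are shown with the element in capitals, on whichever strand it reads, in the 250 bases before the RefSeq start, build GRCm38.p6, at chr19:34640639-34640888, plus strand, and chr19:34583279-34583528, plus strand.
Ifit1: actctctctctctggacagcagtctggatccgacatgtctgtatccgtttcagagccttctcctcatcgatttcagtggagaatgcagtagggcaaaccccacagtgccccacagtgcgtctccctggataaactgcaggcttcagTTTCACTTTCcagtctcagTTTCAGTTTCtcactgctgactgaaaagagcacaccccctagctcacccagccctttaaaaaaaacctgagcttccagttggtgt
Ifit3: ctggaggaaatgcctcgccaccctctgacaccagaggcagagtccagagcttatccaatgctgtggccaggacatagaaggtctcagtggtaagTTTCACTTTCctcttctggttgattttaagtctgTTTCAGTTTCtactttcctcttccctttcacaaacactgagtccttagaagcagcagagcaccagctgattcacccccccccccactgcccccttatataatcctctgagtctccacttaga

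With vehicle 9 of 22 complement and antigen presentation genes were lower and 0 higher (median -0.11), against 6.16% and 7.07% of all genes. Under TGF-β1 those genes were lower in 21 of 22 cases, with a median of -0.80. C3, the central complement component, was at 11.44, 11.58, 11.32 and 11.59 against 14.19, 14.19, 14.23 and 14.24 (-2.73 ± 0.06), and C4b at 9.32, 9.46, 9.09 and 9.38 against 12.39, 12.40, 12.47 and 12.43 (-3.11 ± 0.06). The regulator Cfi (-1.77 ± 0.06) was lower alongside the proteases C1ra (-1.98 ± 0.05) and C1s1 (-1.83 ± 0.06). The exception was B2m, the light chain of MHC class I, at 0.16 ± 0.04, which turned to -0.10 under quantile normalization. Leukocyte markers moved with these lists: of 18 tested macrophage and leukocyte markers 13 were lower and 1 higher (Itgam, 0.26 ± 0.05, and -0.01 as the mean of its probes), all 18 were well above background on all 8 treated arrays, and their summed intensity was 119701 to 132144 in the knockout and 152379 to 161062 in the wild type. With vehicle 9 of the 18 were lower and 0 higher (median -0.24), where 6.16% of all genes were lower. Their summed intensity with vehicle was 220630 to 229729 in the knockout and 254910 to 293346 in the wild type. The part of these markers in the result was not tested. In cultures measured as a whole, fewer cells of a type and less RNA per cell cannot be told apart.

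Markers of resident fibroblast states were lower in the treated knockout. Among 22 alveolar and lipofibroblast markers 16 were lower and 4 higher (median -0.74; -0.01 with vehicle). The lipase Lpl was at 10.73, 10.70, 10.57 and 10.58 against 12.87, 12.83, 12.82 and 12.83 (-2.19 ± 0.06), the fatty acid carrier Fabp4 at -1.59 ± 0.05, the retinal dehydrogenase Aldh1a1 at -1.35 ± 0.04 and the lung mesenchyme factor Tcf21 at -1.04 ± 0.06. Of 26 adventitial and progenitor markers 16 were lower and 6 higher, with a median of -1.14, or -0.46 with genes below background set at their bound. With vehicle 9 of them were lower and 2 higher (median -0.04), where 6.16% and 7.07% of all genes were. Ly6a, the antigen Sca-1, gave 4.79, 4.63, 5.11 and 5.20 against 9.02, 9.12, 9.31 and 9.21. Ly6c1 (-3.65 ± 0.08; -2.56 on another probe), Dpp4 (-2.21 ± 0.05) and Cd34 (-1.64 ± 0.06) were lower as well, while Pi16 (0.92 ± 0.09) was higher. Transcription factors of the mesenchyme divided evenly, 14 of 30 higher and 15 lower, from Meox2 (-1.64 ± 0.05) to the tendon factors Scx (1.07 ± 0.05) and Mkx (1.25 ± 0.13).

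Markers of other cell types did not all move alike. Mesothelial markers were lower in 7 of 9 cases (median -1.49): Gpm6a was at 7.10, 7.19, 7.17 and 7.21 against 10.20, 10.07, 9.87 and 10.16, Upk3b differed by -2.57 ± 0.08 and Wt1 by -1.15 ± 0.06, and the summed intensity of the list was 13042 to 14907 in the knockout and 27636 to 28660 in the wild type. Endothelial markers were lower in 12 of 15 cases and higher in 0 (median -0.48), at sums of 4905 to 5433 and 7087 to 7631. Epithelial markers had sums of 12404 to 13708 and 11897 to 12787, 8 of 12 were not called, and Sftpb and Scgb1a1 were at background in both groups. Pericyte and smooth muscle markers had overlapping sums, 40329 to 42647 and 40067 to 44035, although Cspg4, Rgs4 and Myh11 were higher and Notch3 (-0.73 ± 0.04) and Kcnj8 (-0.89 ± 0.06) lower. With vehicle the mesothelial sums were 29257 to 29553 in the knockout and 32487 to 34249 in the wild type. The endothelial sums were 11597 to 12054 and 12469 to 12946, the epithelial 8552 to 8908 and 9690 to 10440. Of the mesothelial, endothelial and epithelial markers 4, 2 and 4 were called lower with vehicle and 0 higher. Pericyte and smooth muscle markers, 1 lower and 3 higher, had sums of 33967 to 35507 and 31231 to 32742. Of all genes 6.16% were lower and 7.07% higher. What these cell type differences contribute to the other lists was not tested.

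**Figure D3:**
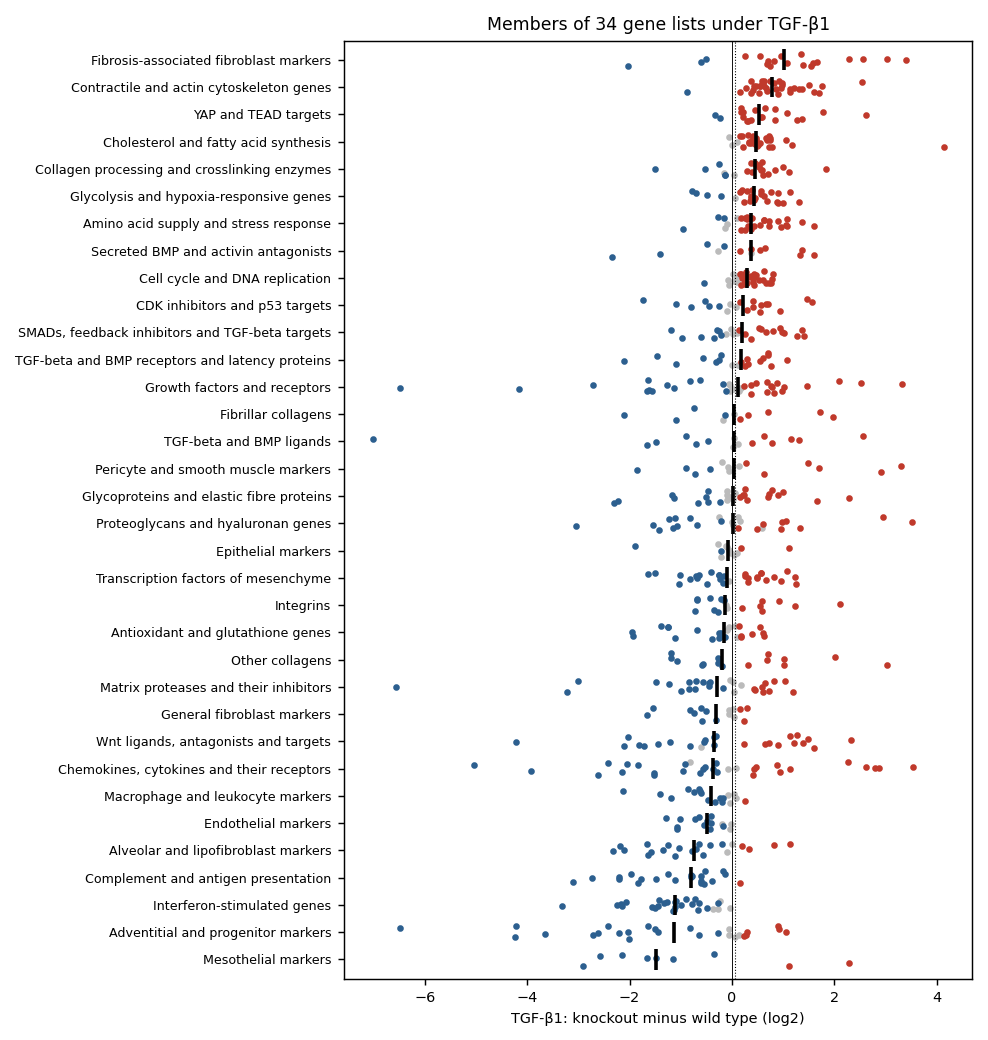
Each row is a gene list and each point a tested member at its measured difference between knockout and wild type under TGF-β1 (horizontal axis, log2), red where called higher, blue where called lower and grey where not called; the thick bar is the list median and the dotted line the median of all genes (0.059). Fibrosis-associated and contractile genes lie to the right, interferon-stimulated, adventitial and mesothelial genes to the left, and the collagen lists straddle 0.

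Metabolic lists leaned toward the knockout by smaller amounts. Of 29 cholesterol and fatty acid synthesis genes 26 were higher and 0 lower (median 0.47; 0.09 with vehicle), with Acsbg1 far beyond the others. Glycolytic and hypoxia-responsive genes were higher in 22 of 27 cases (median 0.43), including the lactate exporter Slc16a3 (1.31 ± 0.05) and the hexokinase Hk2 (1.14 ± 0.06). In the list of amino acid supply and stress response 23 of 29 were higher and 3 lower (median 0.38), against 14 and 6 under quantile normalization. Its largest differences were in the cysteine-forming enzyme Cth (11.03, 10.92, 10.93 and 11.03 against 9.42, 9.44, 9.28 and 9.38, or 1.60 ± 0.04), the arginine carriers Slc7a3 (1.36 ± 0.06) and Slc7a1 (1.07 ± 0.05), and the serine-synthesis enzyme Psph (1.07 ± 0.04). Antioxidant genes differed: 13 of 24 were lower and 7 higher (8 lower after a shift to a common median, 4 higher under quantile normalization), with the glutathione transferases Gstt1 (-1.95 ± 0.06), Gsta4 (-1.25 ± 0.04) and Gstm1 (-1.25 ± 0.05) and the extracellular superoxide dismutase Sod3 (-1.38 ± 0.05) at the low end.

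Cell cycle genes were slightly higher, 28 of 36 with 1 lower (Ccnd1, -0.54 ± 0.06), at a median of 0.29 and with no member at 2-fold. Quantile normalization gave 23 higher and 4 lower (median 0.17), and a shift to a common median 33 and 1 (median 0.41). The ribonucleotide reductase subunit Rrm2 was at 0.80 ± 0.04, the transcription factor Mybl2 at 0.78 ± 0.09 and the mitotic kinase Aurka at 0.77 ± 0.05. Inhibitors of cyclin-dependent kinases and p53 targets were mixed, with 11 of 20 higher and 6 lower, against 39.6% and 30.5% of all genes. With vehicle 11 were higher and 1 lower (median 0.17), where 7.07% and 6.16% of all genes were. Cdkn2b, a TGF-β target that encodes p15, was at 12.88, 12.81, 12.84 and 12.94 against 11.25, 11.28, 11.32 and 11.36 (1.56 ± 0.04), and Cdkn1c, which encodes p57, at 7.09, 7.31, 7.32 and 7.24 against 8.99, 9.01, 8.95 and 8.95 (-1.73 ± 0.05). For Cdkn2b both vehicle groups lay at 11.16 to 11.32, level with treated wild type cells.

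Some genes changed sign between the treatments, called in both genotype comparisons in opposite directions. Of all genes, 178 were higher under TGF-β1 and lower with vehicle (1.16%), and 371 were the reverse (2.41%). More were called in the same direction in both comparisons, 518 higher (3.36%) and 593 lower (3.85%). Fgf21, a metabolic hormone, was at 8.98, 8.95, 9.00 and 9.06 in the treated knockout and 6.95, 6.89, 6.98 and 6.76 in the treated wild type (2.10 ± 0.07), while with vehicle the knockout arrays were at 5.99 to 6.38 and the wild type arrays at 6.72 to 6.79 (-0.62 ± 0.07). The MHC class II chain H2-Ab1 gave 11.47, 11.50, 11.48 and 11.49 against 10.04, 10.11, 10.23 and 10.18 (1.34 ± 0.05; -0.66 ± 0.05 with vehicle), though its chaperone Cd74 was lower in both comparisons (-0.60 ± 0.11 and -0.97 ± 0.11). Il1b, a cytokine of myeloid cells, was at 2.27 ± 0.23 and -0.76 ± 0.23 (3 of 4 treated wild type arrays above background; 1.22 under TGF-β1 on another probe), the leukocyte integrin chain Itgal at 0.98 ± 0.07 and -0.62 ± 0.07, and the immune adaptor Scimp at 0.83 ± 0.05 and -0.97 ± 0.05. These were picked for their opposite signs, whereas 13 of the 18 leukocyte markers were lower under TGF-β1. In the other direction the gelatinase Mmp9 was at -0.99 ± 0.06 under TGF-β1 and 0.69 ± 0.06 with vehicle, and the protease inhibitor A2m, at least 1.66-fold lower under TGF-β1, at 0.88 ± 0.20 with vehicle.

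**Figure D4:**
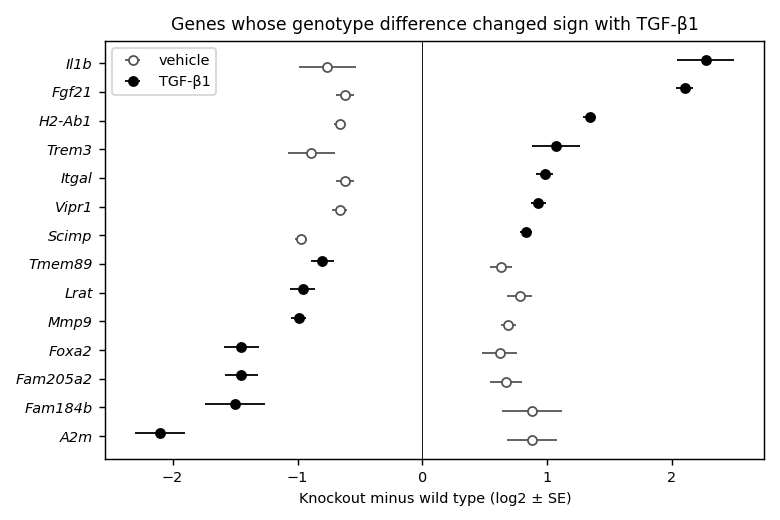
Differences between knockout and wild type (horizontal axis, log2 ± SE, 4 arrays per group) with vehicle (open circles) and under TGF-β1 (filled circles) for 14 genes called in opposite directions, at their measured values. The 7 upper genes are low in the vehicle knockout and high in the treated knockout, and the 7 lower genes are the reverse; A2m and Fam184b were not well above background on any treated knockout array, so their filled circles are fitted values, not measured sizes.

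Promoter windows of 300 bases, 250 before and 50 after the RefSeq start in build GRCm38.p6, were searched on both strands for 6 motifs: the CArG box and the NF-kB site by name, and the letters TGANTCA for AP-1, GAAANNGAAA for the ISRE, GGAATG for TEAD and CAGACA for SMAD. No pattern is contained in another, and 12174 of the tested genes matched a window. The CArG box was in 1.41% of all 15426 windows, in 4.55% of the 484 windows of genes at least 2-fold higher and in 1.59% of the 1006 windows of genes at least 2-fold lower. AP-1 letters were in 5.76%, 12.2% and 8.25% of them, and the ISRE in 3.14%, 3.51% and 6.96%. Relative to their share of all windows the other motifs varied less. NF-kB was in 5.19%, 4.96% and 5.86%, TEAD in 12.7%, 15.1% and 14.1%, and SMAD in 16.8%, 22.5% and 19.6%. Within the lists, 8 of 35 windows of contractile genes held a CArG box (22.9%), 12 of 26 windows of interferon-stimulated genes an ISRE (46.2%), and 11 of 17 windows of YAP and TEAD genes the TEAD letters (64.7%). These shares describe letters in the reference and were not tested, and genes with several starts count more than once.

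**Figure D5:**
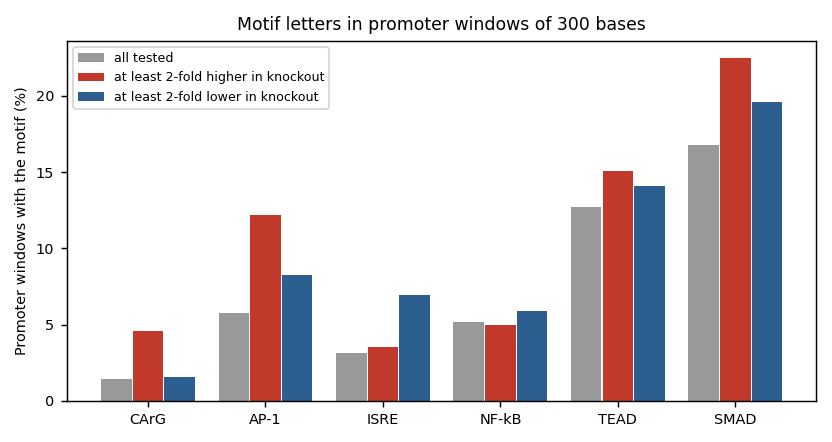
Share of promoter windows of 300 bases that hold each motif on either strand (vertical axis, percent), for all tested genes (grey), genes at least 2-fold higher (red) and genes at least 2-fold lower (blue) in the treated knockout. The red bar is the tallest for CArG, AP-1, TEAD and SMAD, and the blue bar for the ISRE and NF-kB.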

How the data were processed

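Total RNA was labelled with Cy3 and hybridised to 1-colour Agilent mouse arrays, 1 per sample. The deposited intensity values are background-subtracted spot signals from Agilent Feature Extraction 11.0.1.1, per the submitters' processing notes, and the deposited detection and outlier marks (other columns) come from that program. The authors' deposited log2 values, whose normalization is not given in the sources used here, served as an alternative: 9922 of their probes were used, and per array they correlated with the scanner values at r of 0.999 or more.

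Control spots and 27 probes marked as outliers were left out, spots of a probe were averaged, and log2 intensity was shifted per array to a common 75th percentile. A probe was kept if some group had all 4 arrays well above background, which left 33888, 22709 of them with a gene name. The brightest probe stood for the gene where several did (5763 genes), giving 15394 genes. Levels of different probes were not compared. limma 3.58.1 (R 4.3.3, with data.table in version 1.17.8) fitted 1 mean per group over 16 arrays, with Benjamini-Hochberg adjustment. The steps were tested on simulated data.

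Named genes were the 3 markers Islr, Gdf10 and Acsbg1, the 12 largest measured changes and 8 largest bounds each way without overlap of the arrays, 8 genes of opposite sign each way, 8 each way that were flat with vehicle, and list members by size or as values. The comparison and the lists were chosen with earlier results of these data known. Alternatives changed the background correction, the scaling, the filter, the probe, the arrays fitted, the slide and the replicate number. The number of arrays limits the precision. Promoters come from RefSeq. A few list members are not reported here.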

Additional observations from a re-analysis of the deposited data

Results flagged for a closer look

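Among 95 groups of 4 arrays examined for a single array far from the others, 2 held one, where chance gives about 1 in 20. Rgs4 stood at 6.23 on replicate 4 of the treated knockout, with the other 3 arrays at 6.55 to 6.58. The 75th percentile of intensity was 518.9 on replicate 4 of the vehicle knockout, with the others at 469.6 to 476.2.

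Of the genes called in opposite directions in the 2 treatments, the 16 named ones, 8 each way, are given with their interaction (n = 4 arrays per group). The interaction was positive, higher in the knockout under TGF-β1 and lower with vehicle, for Il1b (3.03), Fgf21 (2.72), Nkx6-2 (2.22), H2-Ab1 (2.01), the myeloid receptor Trem3 (1.96), Scimp (1.81), Itgal (1.60) and the neuropeptide receptor Vipr1 (1.60). It was negative for A2m (-2.98), Fam184b (-2.38), Fam205a2 (-2.11), the transcription factor Foxa2 (-2.07), the retinol acyltransferase Lrat (-1.75), Mmp9 (-1.68), the surfactant protein Sftpd (-1.54) and Tmem89 (-1.43). No treated knockout array was well above background for A2m or Fam184b, and 1 treated wild type array was for Fam184b, so these 2 interactions are fitted values and no treated decrease of Fam184b was measured. Foxa2 had 1 of 4 treated knockout arrays above background. No treated array of either genotype was well above background for Nkx6-2 or Sftpd, and Sftpd turned to 0.02 with normexp background correction.

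Of 11179 probes with no gene name, used in no comparison above, 53.2% were called under TGF-β1, 2872 higher and 3079 lower in the knockout. At least 2-fold differences were found for 202 and 650 of them.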

How the results depend on the processing

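Called genes under TGF-β1 numbered 10356 to 11262 over the alternatives that kept all genes and arrays of the comparison, and 10665 of 22906 without a filter on dim probes. The authors' deposited table holds fewer genes and gave 4214 called of 5255 (1985 higher, 2229 lower), 1158 with vehicle and 3827 for the interaction. Normexp background correction, with an offset of 50 added to every signal, gave 283 genes at least 2-fold higher and 473 lower. Such an offset makes log2 differences of dim probes smaller, and the fitted Islr difference was -2.51 against -6.58. How much of the drop in counts comes from the offset was not tested. With fewer samples, vehicle calls were 196 within slide 1 and 1049 within slide 2, and interaction calls 5615 within slide 1. Leaving out a treated array gave 10363 to 10611 called. Replicate numbers were not used as pairs: deviations of same-numbered arrays correlated at 0.145, 0.048, 0.086 and 0.050, and with the replicate block 11061 genes were called against 10800. Precision for dim genes is limited by signal over background. A list median was counted as moved if it shifted by at least the usual SD of its members between arrays of a treated group. It moved for 23 of 34 lists under quantile normalization, 32 after a shift to a common median and 25 in the authors' table. Signs turned for B2m (-0.10), Col1a1 (-0.09), Col1a2 (-0.15) and Fn1 (-0.22) under quantile normalization, for Fn1 (-0.14) and Itgam (-0.01) as means of their probes, and for Scgb1a1 (0.15) and Sftpd (0.02) with normexp; the cause was not tested.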

Other observations

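Genes around Islr on chromosome 9 were looked at as a group, the 25 tested genes on each side in annotation order. Of these 50 genes 17 were higher and 14 lower in the treated knockout (62% called, against 70.2% of all genes). With vehicle 2 were higher and 3 lower, where 13.2% of all genes were called. The matrix protein gene Thsd4 differed by -3.09 under TGF-β1, Larp6, whose product binds collagen mRNA, by -2.08, and Rpp25 by -1.56. Rec114 was at 1.51 with the treated wild type not well above background. These 4 are those past 2-fold and were named after their values were seen.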
